A study of Mus musculus with 9 samples.

Results

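The GABA-A receptor subunit genes Gabra2, Gabra3, Gabra4, Gabra5, Gabrb1, Gabrb2 and Gabrd were examined in neuron types and glia of the mouse brain. They were picked by gene symbol, and all 7 were found once each among the 31053 genes listed. The measurements came from single-nucleus RNA sequencing of cortex and hippocampus, pooled within each mouse, in 9 wild-type (genotype label WT) male C57BL/6 mice, with 1 library per mouse and 3 mice per group. Every mouse had received an adeno-associated virus (AAV) by retro-orbital injection 8 weeks before tissue collection. Young AAV-EGFP and aged AAV-EGFP mice carried a virus for the green fluorescent protein EGFP, and aged AAV-B3GNT3 mice carried one for EGFP with B3GNT3, a glycosyltransferase that extends mucin-type O-glycans. Per the study's methods the young mice were 5 months and the aged mice 19 months old at collection. The viruses used a capsid that reaches brain vessels and a shortened promoter of the tight junction gene CLDN5, so that expression was directed to endothelial cells and not to the neurons or glia described here. No uninjected mice and no young mice given AAV-B3GNT3 were analysed here.

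GABA-A receptors are chloride channels built from several subunits around a pore, most often alpha and beta subunits with a gamma or delta subunit, and they open when GABA, the main inhibitory transmitter of the forebrain, binds between an alpha and a beta subunit. The alpha subunit sets much of where a receptor sits and how it responds: receptors with alpha 2 or alpha 3 are found at synapses, while those with alpha 5, or with alpha 4 and delta, lie largely outside synapses and carry a slow, tonic current. Astrocytes also carry GABA-A receptors, and oligodendrocyte precursors receive GABAergic input from neurons.

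The libraries held 77823 barcodes with 47332047 to 79964605 UMIs (unique molecular identifiers, 1 per captured RNA molecule) per mouse. After filters on genes and doublets, 70389 nuclei remained, 5781 to 9283 per mouse, at a median of 2970 to 5273 UMIs per nucleus. Of the barcode sequences, 734 occurred in more than 1 library. Clustering without any GABA receptor gene gave 7 classes tested and, among neurons, 22 types, of which 15 could be named from markers and 7 are called by their leading genes. Striatal projection neuron types (76 to 398 direct-pathway-like and 58 to 298 indirect-pathway-like nuclei per mouse) and subcortical glutamatergic-like nuclei were present although the labels give only hippocampus and cortex. Young AAV-EGFP mouse 2 and aged AAV-EGFP mouse 1 stood apart in several neuron types by oligodendrocyte RNA. Counted as free RNA, it was estimated at 40.39% in Parvalbumin interneuron-like nuclei of the first and at 43.68% in striatal direct-pathway-like nuclei of the second. Over all inhibitory neurons the same estimate was 13.51% and 8.33% in these mice, so it differed between types of 1 library. The source of this oligodendrocyte RNA was not tested. Nothing in the labels gives a sequencing batch.

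Levels are first given as CPM, the UMIs of a gene divided by all UMIs of a type in a mouse and scaled to a total of 1000000, and are compared only between types within a gene. The plot of levels over 28 neuron types and classes shows that each of the 7 genes had its own order of types.

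**Figure D1:**
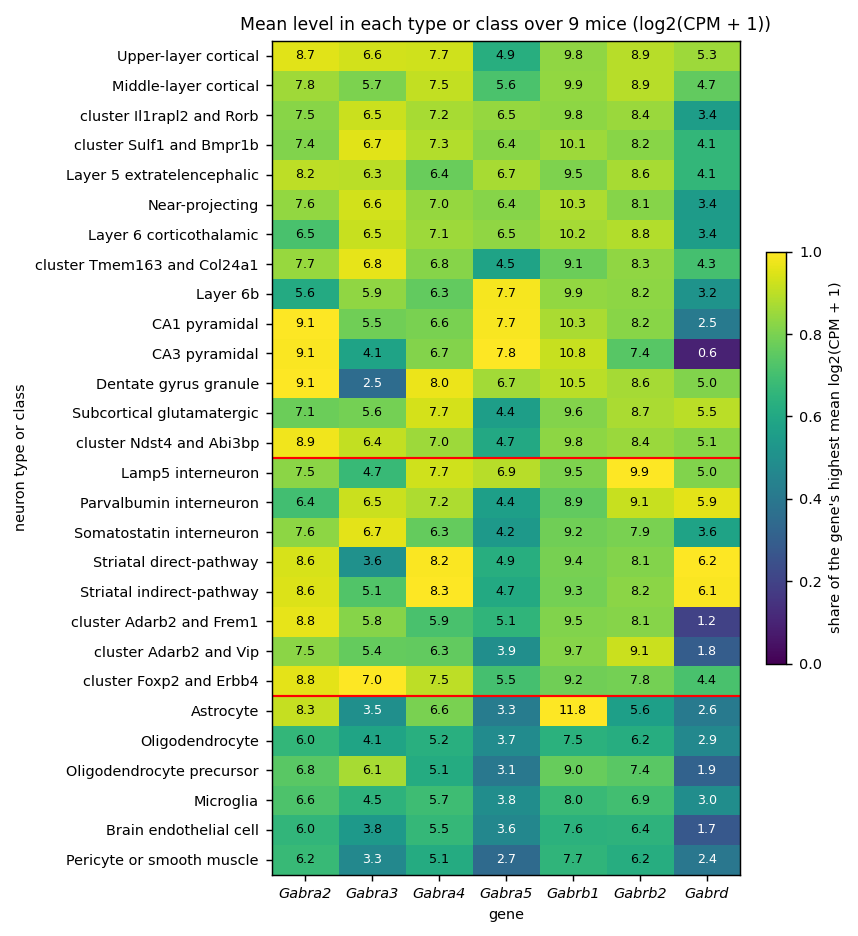
Mean level, as log2(CPM + 1) over 9 mice, of the 7 genes (columns) in 14 glutamatergic types, 8 GABAergic types and 6 other classes (rows, parted by red lines); numbers are the means, and colours give each as a share of that gene's highest mean, so that colours may be compared only within a column. Gabra2 is high in the hippocampal types, Gabra5 in the CA1 and CA3 types, Gabra4 and Gabrd in the striatal types, Gabrb2 in Lamp5 interneuron-like nuclei, and Gabrb1 in astrocytes.

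Gabra2 encodes alpha 2, a synaptic subunit that is also found at the axon initial segment. Its level was highest in the 3 hippocampal types: Dentate gyrus granule-like nuclei (584 ± 185 CPM, SD, n = 9; 400.5 to 936), CA1 pyramidal-like nuclei (559 ± 71.4) and CA3 pyramidal-like nuclei (558 ± 139.6). It was lowest in Layer 6b-like nuclei, at 47.8 ± 10.8 CPM, below Layer 6 corticothalamic-like nuclei at 92.5 ± 24.3 CPM. In astrocytes it stood just below the striatal direct-pathway-like nuclei, by 0.26 on the log2 scale.

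Gabra3 encodes alpha 3. A GABAergic cluster led by Foxp2 and Erbb4 had its highest level, 131.6 ± 15.8 CPM (SD, n = 9; 105 to 162), followed by a glutamatergic cluster led by Tmem163 and Col24a1 at 112 ± 28.3 CPM and by Somatostatin interneuron-like nuclei at 107 ± 17.2 CPM. Dentate gyrus granule-like nuclei were last, at 5.57 ± 3.05 CPM, and 1 of the 9 mice had no Gabra3 UMI there, so that the ratio of first to last, 23.6, rests on few counts. Striatal direct-pathway-like nuclei (12.1 ± 6.48 CPM) were also low.

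Gabra4 and Gabrd encode alpha 4 and delta, which assemble together. Gabra4 was highest in striatal indirect-pathway-like nuclei (308.9 ± 44.0 CPM, SD, n = 9; 244 to 359.6) and direct-pathway-like nuclei (298 ± 39.8), followed by Dentate gyrus granule-like nuclei (264 ± 47.3). Gabrd was highest in the same pair of striatal types, with 72.3 ± 15.4 CPM in the direct-pathway-like (39.9 to 88.9) and 69.5 ± 12.9 CPM in the indirect-pathway-like nuclei, ahead of Parvalbumin interneuron-like nuclei at 60.4 ± 12.7 CPM. Over the 28 types and classes, which share libraries and depth, the mean log2 levels of Gabra4 and Gabrd had a Pearson r of 0.770, the highest of the 21 pairs among the 7 genes. Hippocampal types differed from one another: Gabrd stood at 0.683 ± 0.906 CPM in CA3 pyramidal-like nuclei, where 5 of 9 mice had no UMI and the highest count was 2.

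Gabra5 encodes alpha 5, known for its place in hippocampal pyramidal cells. CA3 pyramidal-like (220.6 ± 40.8 CPM, SD, n = 9; 172 to 314), CA1 pyramidal-like (206 ± 32.2) and Layer 6b-like nuclei (202 ± 27.4) came first, and Lamp5 interneuron-like nuclei followed at 122.6 ± 13.2 CPM. Layer 6b-like nuclei were above Lamp5 interneuron-like nuclei in 9 of 9 mice. In astrocytes Gabra5 was at 9.76 ± 4.59 CPM.

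The beta subunits line the GABA binding site opposite alpha, and the 2 measured here differed in where they were high. Gabrb1 was highest in astrocytes, at 3584 ± 729 CPM (SD, n = 9), with a lowest value of 2664 and a highest of 4533, and each of the other 27 types and classes was lower in every mouse. CA3 pyramidal-like nuclei came next at 1800.3 ± 270.3 CPM, and Dentate gyrus granule-like nuclei at 1491 ± 116 CPM. Gabrb2 was highest in Lamp5 interneuron-like nuclei, at 980.2 ± 136 CPM (765 to 1128), again above each of the other 27 in every mouse, and lowest in astrocytes, at 51.3 ± 19.8 CPM.

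Types next to each other in these orders were compared within mice by an exact two-sided paired permutation test, which flips the sign of each mouse's difference and can give no p below 0.00391 with 9 mice. None of the 189 neighbouring pairs passed after Benjamini-Hochberg adjustment over all pairs, where the lowest adjusted p was 0.1055, while 22 had an unadjusted p under 0.05 and 7 reached the smallest p. With this smallest p, 15 pairs would have had to reach it for any to pass, so the 0 says little about the orders. These 7 included astrocytes against CA3 pyramidal-like nuclei for Gabrb1 (0.98 higher on the log2 scale), Lamp5 interneuron-like nuclei against the cluster led by Adarb2 and Vip for Gabrb2 (0.81 higher), and Layer 6b-like against Lamp5 interneuron-like nuclei for Gabra5 (0.71 higher). The exact orders of the hippocampal types for Gabra2, and of the striatal types for Gabra4 and Gabrd, were within the spread over mice. On another scale, UMIs per nucleus, 52 of the 189 neighbouring pairs passed the adjusted test in the same order and a further 30 in the opposite order. These orders therefore hold for shares of a type's RNA.

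Among 12015 genes compared over the same 28 types and classes, those with the highest Pearson r of mean log2 level to each gene included the following. Gabrb2 was closest to Mir124a-1hg (0.916), a host transcript of a neuronal microRNA, and Cnnm1 (0.878). Gabrb1 was closest to Nrcam (0.871), Lgi1 and Gpm6a, all cell-surface or secreted neural proteins. Gabra4 was closest to Ndrg4 (0.844), and Jakmip1 (0.834) was also near. The closest genes were Chrd (0.821), Nos1ap and Frrs1l for Gabra5, Vopp1 (0.819), Elavl4 and Agbl4 for Gabra3, Cyp46a1 (0.815), Rhobtb2 and Rnf207 for Gabrd, and Inhba (0.778), Efcab1 and Dgkb for Gabra2. These are descriptions over points that share libraries, with no test.

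The genes lie in clusters in the GENCODE vM21 annotation of GRCm38. Gabra2 (chr5:70957597-71095849, minus strand), Gabra4 (chr5:71569749-71658308, minus strand) and Gabrb1 (chr5:71658113-72149037, plus strand) are neighbours on chromosome 5 beside Gabrg1. Gabra4 and Gabrb1 start head to head and share 196 bases on opposite strands. Gabra5 (chr7:57407672-57510059, minus strand) lies beside Gabrg3, and Gabrb2 (chr11:42419757-42629028, plus strand) beside Gabra6. Gabra3 (chrX:72432681-72656848, minus strand) lies between Gabre and Gabrq, and Gabrd (chr4:155384980-155398112, minus strand) has no other subunit gene beside it. The library kit keeps strand, so opposite-strand reads can be told apart if counting used it.

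Of the 7 genes, Gabra3 alone passed the test with age in neurons. In excitatory neurons, now given as CPM on totals scaled by the trimmed mean of M values (TMM), Gabra3 stood at 64.8, 78.4 and 60.6 in young AAV-EGFP mice. Aged AAV-EGFP mice had 100.7, 102.5 and 90.2, and aged AAV-B3GNT3 mice had 67.0, 65.6 and 64.9. All 3 aged AAV-EGFP mice were above all mice of both other groups, whose values overlapped. With ageing Gabra3 rose by 0.53 on the log2 scale (SE 0.106, 1.44-fold, adjusted p = 0.0119, edgeR quasi-likelihood test, Benjamini-Hochberg over 16928 genes). With age 7.55% of genes in this class rose and 6.75% fell, so 1 call among the 7 genes is near the share over all genes. In aged AAV-B3GNT3 against aged AAV-EGFP mice Gabra3 fell by 0.57 (SE 0.106, adjusted p = 0.032), where 1.54% of genes fell. Aged AAV-B3GNT3 against young AAV-EGFP mice differed by -0.05 (SE 0.106, adjusted p = 0.863), where 3.75% of genes were called. Both comparisons share the 3 aged AAV-EGFP mice, so that a high value in them enters both.

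**Figure D2:**
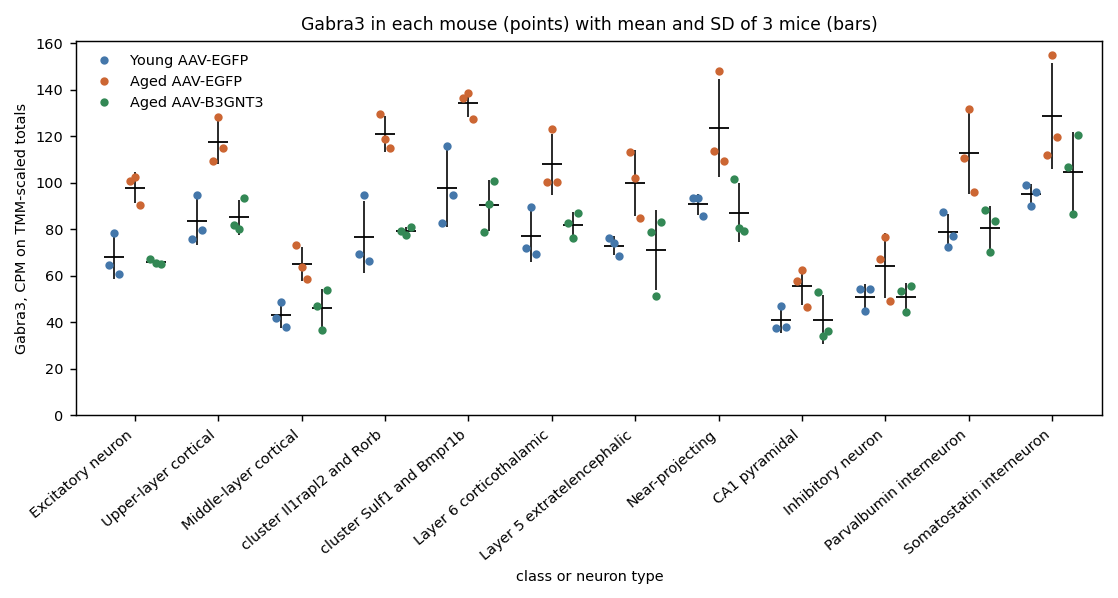
Gabra3 level, as CPM on TMM-scaled totals, in 12 classes and neuron types; each point is 1 mouse, and bars give the mean and SD of 3 mice. In excitatory neurons the aged AAV-EGFP mice (90.2 to 102.5) sit above the young AAV-EGFP (60.6 to 78.4) and aged AAV-B3GNT3 mice (64.9 to 67.0).

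By neuron type, 16 passed the filter on low counts for Gabra3, and its log2 difference with age was above 0 in all 16 (median 0.468, from 0.15 to 0.67), with the types drawn from the same 6 mice. The aged mice lay above the young mice without overlap in 10 of the 16, where 11.8% of all tests over neuron types did so. In neuron types 4 rises of Gabra3 passed the test and no other gene of the 7 did, which makes 4 of 112 gene and type combinations, where 4.10% of all tests over these types were called. This count, too, is near the share over all genes. Upper-layer cortical-like nuclei had 75.7, 94.6 and 79.6 CPM in young AAV-EGFP mice, 109, 128 and 115 in aged AAV-EGFP mice, and 81.7, 80.0 and 93.6 in aged AAV-B3GNT3 mice. All aged AAV-EGFP mice were above all others, by 0.50 (SE 0.120, adjusted p = 0.0129) over young mice. The cluster led by Il1rapl2 and Rorb had 69.3, 94.6 and 66.4 CPM, then 129.5, 119 and 115, then 79.3, 77.5 and 81.0 in the same order of groups, a rise by 0.65 (SE 0.158, adjusted p = 0.0236). Middle-layer cortical-like (0.59, adjusted p = 0.026) and Layer 6 corticothalamic-like nuclei (0.49, adjusted p = 0.0317) rose as well. None of these 4 rises passed without aged AAV-EGFP mouse 2 (0.39 to 0.66, adjusted p from 0.065 to 0.132), young AAV-EGFP mouse 1 (0.41 to 0.57, 0.0589 to 0.0958) or young AAV-EGFP mouse 3 (0.42 to 0.55, 0.0684 to 0.144).

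No GABAergic type passed for Gabra3, and their values varied. The cluster led by Foxp2 and Erbb4, with the highest Gabra3 level, had 148, 129 and 134 CPM in young AAV-EGFP mice, against 156, 128 and 174 in aged AAV-EGFP mice, which overlap (0.18, adjusted p = 0.863). Lamp5 interneuron-like and both striatal types also overlapped (0.15 to 0.31). The cluster led by Adarb2 and Vip had 35.4, 36.8 and 31.4 CPM in young AAV-EGFP mice and 81.8, 43.4 and 50.4 in aged AAV-EGFP mice, with no overlap and a difference of 0.67 (SE 0.309, adjusted p = 0.346). In Parvalbumin interneuron-like nuclei the level was 87.4, 72.5 and 77.0 CPM in young AAV-EGFP, 110.7, 131.5 and 96.1 in aged AAV-EGFP and 88.2, 70.4 and 83.5 in aged AAV-B3GNT3 mice, a log2 difference of 0.52 with age (adjusted p = 0.076). In Somatostatin interneuron-like nuclei it was 0.44 (adjusted p = 0.137), also without overlap between young and aged AAV-EGFP mice. Over all inhibitory neurons, which include the striatal types, it was 0.33 (SE 0.160, adjusted p = 0.218). The striatal share of this class differed between mice, and Gabra3 was low in direct-pathway-like nuclei. Values of the whole class can therefore also vary with that share. The test of the difference in change between excitatory and inhibitory neurons gave 0.24 (SE 0.17, adjusted p = 0.686, limma), so a difference between them was not shown. Over the differences between excitatory neurons and each other class, 15 were called for the 7 genes with age, where 4.95% of all such tests were called, and 7 in the treated mice, where 1.76% were; all 22 were against glia.

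Oligodendrocyte RNA moved with these groups in the opposite direction. The summed level of 6 oligodendrocyte markers in excitatory neurons was 197 to 229 CPM in young AAV-EGFP, 114 to 165 in aged AAV-EGFP and 187 to 225 in aged AAV-B3GNT3 mice, with no marker at 0. After subtraction of the estimated free RNA, the Gabra3 difference was 0.50 with age (adjusted p = 0.0204) and -0.54 in the treated mice (adjusted p = 0.0501). With both libraries rich in oligodendrocyte RNA in several neuron types left out (aged AAV-EGFP mouse 1 and young AAV-EGFP mouse 2), it was 0.62 and -0.55, and both passed. In excitatory neurons their estimated free RNA was 9.75 and 16.03%, the former below every mouse of the other 2 groups. Leaving them out thus does not remove the difference between groups in oligodendrocyte RNA in this class. The age difference did not pass without aged AAV-EGFP mouse 2 (0.49, adjusted p = 0.0527) or young AAV-EGFP mouse 3 (0.45, 0.0654). That of the treated mice did not pass without aged AAV-EGFP mouse 2 (adjusted p = 0.164), aged AAV-B3GNT3 mouse 1 (0.13) or mouse 2 (0.154), or young AAV-EGFP mouse 3 (0.0574), at values from -0.58 to -0.54.

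The sequence before a Gabra3 start site is shown because this gene was called in the most neuron types. The RefSeq promoter table (GRCm38.p6) held 10 start sites for 6 of the 7 genes, and 6 windows of 250 bases before the start lay clear of annotated exons. The window of Gabra3 clear of exons (chrX:72656920-72657169, minus strand, 5′ to 3′) has 1 match to TATAAA or its reverse complement TTTATA, in capitals, 123 bases before the start, none to GGGCGG or CCGCCC, and no CpG, at 42.4% GC. Another Gabra3 start has a window (chrX:72656808-72657057) that overlaps an annotated exon. The same match lies 235 bases before that start, so its distance depends on the start chosen. Of 32851 promoters of this length, 12.4% hold the first motif and 32.7% the second on either strand, and the median promoter has 52.4% GC and 6 CpG.
Gabra3: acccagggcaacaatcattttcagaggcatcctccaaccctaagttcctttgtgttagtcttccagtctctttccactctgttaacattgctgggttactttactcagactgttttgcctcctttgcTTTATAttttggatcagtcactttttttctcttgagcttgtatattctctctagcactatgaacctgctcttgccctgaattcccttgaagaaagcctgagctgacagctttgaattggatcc

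In excitatory neurons none of the other 6 genes passed the test with age, with log2 differences from -0.15 to 0.18, and in inhibitory neurons none of the 7 did, where 3.96% of all genes were called. In neuron types the other 6 genes did not share 1 direction with age. Gabra2 was lower in 13 of 17 types and Gabrd in 10 of 12, while Gabrb2 was higher in 13 of 17 and Gabrb1 in 12 of 17. Gabra4 was higher in 9 and lower in 8, and Gabra5 higher in 8 and lower in 8. The groups overlapped in most types. Gabra4 did not overlap between groups in 2 of the 17 types, in opposite directions, where 23.4% of all tests over neuron types showed no overlap in either direction. Middle-layer cortical-like nuclei had 151, 174.5 and 174.6 CPM in young AAV-EGFP against 209, 196 and 199 in aged AAV-EGFP mice, a difference of 0.27 (adjusted p = 0.115). Striatal indirect-pathway-like nuclei were at 337.5, 375 and 367 CPM in young AAV-EGFP against 318, 277 and 263, and differed by -0.33 (adjusted p = 0.219). Aged AAV-B3GNT3 mice had 248, 347 and 288 CPM in the latter.

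The second question was how aged AAV-B3GNT3 mice differed from aged AAV-EGFP mice. In neuron types 4 of the 112 combinations were called, all lower in the treated mice, where 0.605% of all tests over these types were called as lower, and 37 of the 112 had an unadjusted p under 0.05, as did 14.6% of all tests. Gabra2, Gabrb1 and Gabrb2 were each lower in 17 of 17 types and Gabra3 in 16 of 16, with medians of -0.367, -0.245, -0.422 and -0.489. Against young AAV-EGFP mice, a comparison that shares the treated mice, Gabra2, Gabrb1 and Gabrb2 were again lower in 17 of 17 types, with medians of -0.494, -0.103 and -0.273, while Gabra3 was higher in 10 of 16 and lower in 6 (median 0.017). Gabra2 did not overlap with young AAV-EGFP mice in 13 of 17 types and with aged AAV-EGFP mice in 1 of 17. The counts were 4 and 6 for Gabrb1, and 5 and 3 for Gabrb2. Of all tests over neuron types, 9.57% lay lower without overlap against young and 9.33% against aged AAV-EGFP mice. Against aged AAV-EGFP mice, Gabrd (9 of 12 types higher), Gabra5 (9 of 16 higher) and Gabra4 (13 of 17 lower) had medians of 0.184, 0.017 and -0.075. Against young AAV-EGFP mice, Gabrd was lower in 6 of 12 types, Gabra5 in 7 of 16 and Gabra4 in 15 of 17, with medians of -0.001, 0.054 and -0.078. The types come from the same 6 mice and are not independent of one another, and the median log2 change of all genes lay at or below 0.02 in every type.

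**Figure D3:**
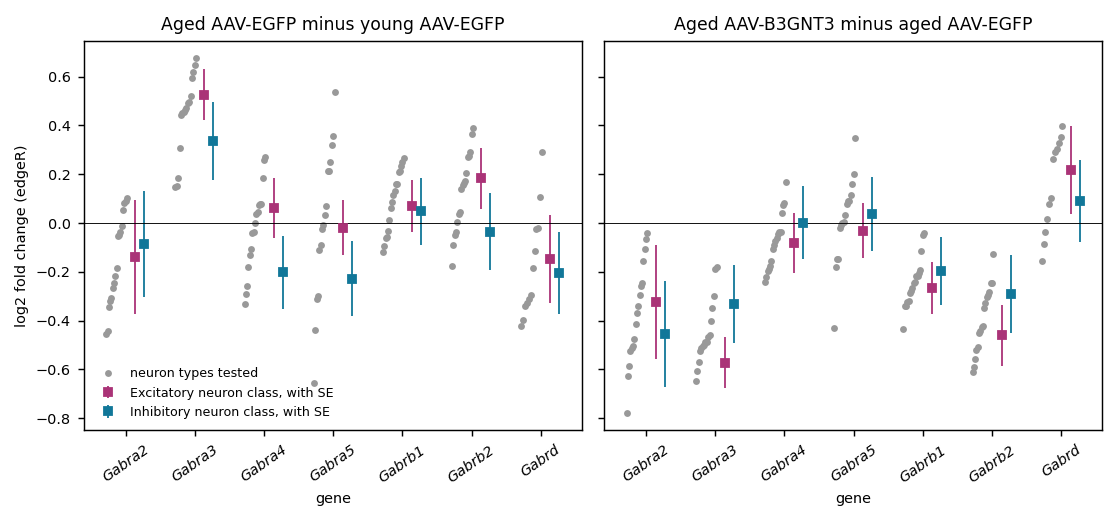
Log2 fold change (edgeR) of the 7 genes with age (left) and in aged AAV-B3GNT3 against aged AAV-EGFP mice (right); grey points are neuron types, sorted by value within a gene, and squares with bars are the excitatory and inhibitory classes with their SE. Gabra3 lies above 0 in every type on the left and below 0 in every type on the right; Gabra2, Gabrb1 and Gabrb2 lie below 0 in every type on the right only.

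Gabra3 fell in Upper-layer cortical-like nuclei, by 0.47 (SE 0.120, adjusted p = 0.0457), and in a glutamatergic cluster led by Sulf1 and Bmpr1b, from 136, 139 and 127 CPM in aged AAV-EGFP to 78.9, 90.8 and 100.9 in aged AAV-B3GNT3 mice, by 0.57 (SE 0.142, adjusted p = 0.0492). Young AAV-EGFP mice had 82.9, 116 and 94.8 CPM in that cluster. The treated mice lay below the aged AAV-EGFP mice without overlap in 8 of 16 types, where 9.33% of all tests over neuron types did so. Neither fall passed without aged AAV-EGFP mouse 2, aged AAV-B3GNT3 mouse 1 or 2, or young AAV-EGFP mouse 3 (adjusted p from 0.0676 to 0.261), nor that in Upper-layer cortical-like nuclei without aged AAV-EGFP mouse 3 (0.0592) or that in the cluster without aged AAV-EGFP mouse 1 (0.0616). After subtraction of free RNA the differences were -0.43 (adjusted p = 0.0947) and -0.51 (adjusted p = 0.111), neither of them called. The call in Upper-layer cortical-like nuclei was lost under 7 of 19 alternatives and that in the cluster under 10 of 19, where the differences kept their sign.

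Gabra2 fell by 0.59 in Upper-layer cortical-like nuclei (SE 0.155, adjusted p = 0.04998), where the groups overlapped: aged AAV-EGFP mice had 639, 509.6 and 366 CPM and aged AAV-B3GNT3 mice 302, 334 and 369.5, beside 489, 477 and 454 in young AAV-EGFP mice. Aged AAV-EGFP mouse 1 was the highest of the 9, and without it the difference was -0.38 (adjusted p = 0.126). The call was lost under 13 of 19 alternatives, among them those without aged AAV-EGFP mouse 2, aged AAV-B3GNT3 mouse 1 or 2, or young AAV-EGFP mouse 2 or 3, at -0.60 to -0.52 (adjusted p from 0.0658 to 0.231). In Layer 6 corticothalamic-like nuclei Gabra2 was lower in aged AAV-B3GNT3 (61.1, 66.0 and 73.2 CPM) than in young AAV-EGFP mice (134, 117 and 105), by 0.83 (SE 0.189, adjusted p = 0.0474), and aged AAV-EGFP mice spanned both, at 124, 99.9 and 65.0 CPM. This was the only call in neuron types between aged AAV-B3GNT3 and young AAV-EGFP mice, where 1.16% of all tests were called, and it was lost in 7 of the 9 fits that each left out 1 mouse, at -0.91 to -0.73 in those 7. After subtraction of free RNA it was -0.41 (adjusted p = 0.794). The Gabra2 window before its start (chr5:71095850-71096099, minus strand) is set beside that of Gabra3 because both were lower in every tested type of the treated mice; it has 70.0% GC and 18 CpG, and its 1 match to GGGCGG, in capitals, lies 205 bases before the start.
Gabra2: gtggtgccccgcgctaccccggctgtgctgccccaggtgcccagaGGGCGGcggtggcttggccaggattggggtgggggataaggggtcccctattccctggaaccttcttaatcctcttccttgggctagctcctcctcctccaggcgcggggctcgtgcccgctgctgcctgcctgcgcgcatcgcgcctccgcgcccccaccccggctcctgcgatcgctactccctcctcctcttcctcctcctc

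Gabrb2 fell in the cluster led by Il1rapl2 and Rorb, from 437, 453 and 398 CPM in aged AAV-EGFP to 291, 268 and 285.5 in aged AAV-B3GNT3 mice, by 0.61 (SE 0.129, adjusted p = 0.0228), and the groups did not overlap. Young AAV-EGFP mice had 363, 369 and 323 CPM, between the other groups. Without aged AAV-B3GNT3 mouse 2 the difference was -0.56 (adjusted p = 0.233), and it was also not called without aged AAV-EGFP mouse 2 or aged AAV-B3GNT3 mouse 1 (adjusted p = 0.114 and 0.0918), after subtraction of free RNA (-0.59, adjusted p = 0.0629) or without both libraries rich in oligodendrocyte RNA (-0.60, adjusted p = 0.0562), which makes 5 of 19 alternatives. Over all excitatory neurons Gabrb2 had 513, 498 and 379 CPM in aged AAV-EGFP and 341, 307 and 362 in aged AAV-B3GNT3 mice, a difference of -0.46 (SE 0.126, adjusted p = 0.0674), and Gabrb1 one of -0.27 (SE 0.107, adjusted p = 0.163), both without overlap. The Gabrb2 window at the first of its 3 starts in the table (chr11:42420190-42420439, plus strand) has TATAAA 30 bases before the start and CCGCCC 233 bases before it, at 58.8% GC and 8 CpG.
Gabrb2: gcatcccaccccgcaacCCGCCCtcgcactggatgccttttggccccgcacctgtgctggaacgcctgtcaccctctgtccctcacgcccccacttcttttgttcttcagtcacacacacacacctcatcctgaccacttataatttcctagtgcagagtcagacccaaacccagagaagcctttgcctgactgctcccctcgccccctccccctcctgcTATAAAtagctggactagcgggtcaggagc

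The 3 windows thus have no common pattern of these motifs: Gabra3 and Gabrb2 hold a TATAAA match at different distances, and Gabra2 and Gabrb2 a GGGCGG match. The windows at the other 2 Gabrb2 starts (chr11:42420524-42420773 and chr11:42420951-42421200) hold neither. A match of letters is a description and not evidence of a bound factor.

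In glia, what a nucleus expresses has to be set against RNA that leaked from neurons. Each gene's CPM in a glial class was divided by its CPM in excitatory neurons of the same mouse and set beside the same ratio for 10 neuron genes, among them Syt1, Snap25, Rbfox3, Celf4, Nrgn, Camk2a, Slc17a7, Syn2 and Meg3. These 10 did not share 1 ratio, so their range is a description and no threshold for free RNA. In astrocytes they had a median of 12.73%, a lowest value of 2.599% and a highest of 73.7%. Gabrb1 stood at 361% of its excitatory level (265 to 423% over 9 mice) and Gabra2 at 106% (80.7 to 131%), above all 10 neuron genes in 9 of 9 mice. Gabra4, at 58.7%, was above them in 6 of 9 mice. Gabrb2 (12.9%), Gabra5 (10.8%) and Gabra3 (17.3%) were near the median of the neuron genes. Gabrd stood at 25.1% (11.95 to 41.67%), above all 10 in 0 of 9 mice.

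**Figure D4:**
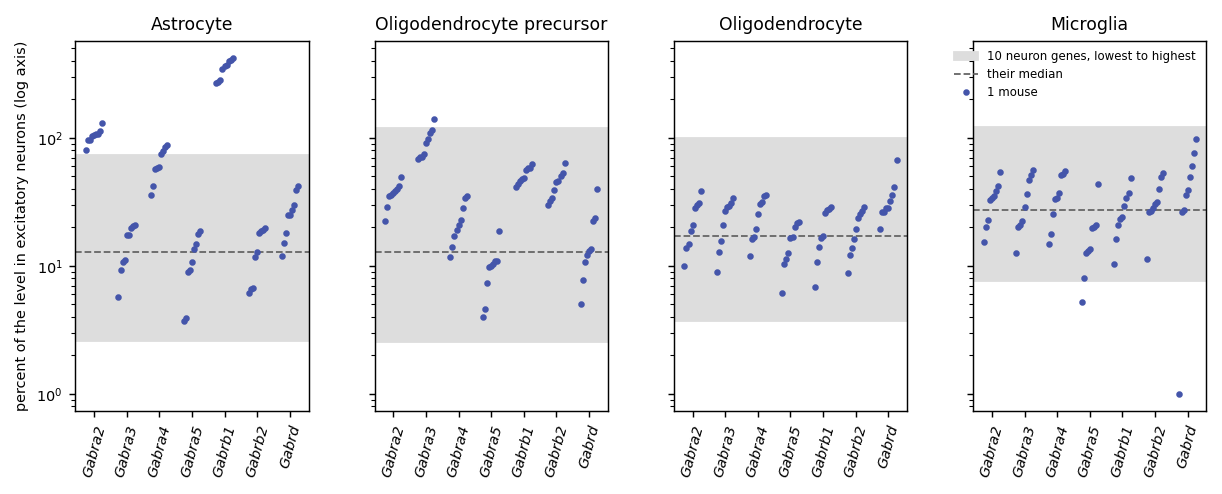
Level of each gene in 4 glial classes as a percent of its level in excitatory neurons of the same mouse (log axis; each point is 1 mouse, sorted within a gene; a value of 0 is drawn at 1); the grey band runs from the lowest to the highest value of 10 neuron genes over 9 mice and the dashed line marks their median. In astrocytes Gabrb1 (265 to 423%) and Gabra2 (80.7 to 131%) lie above the band, and in oligodendrocytes all 7 genes lie within it.

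Oligodendrocyte precursors had Gabra3 at 90.8% of its excitatory level (68.5 to 141%), Gabrb1 at 48.8% and Gabrb2 at 44.8%, and Gabra5 at 10.05%. The 10 neuron genes had a median of 12.86% and a highest value of 119.8% there. Gabra3 was above all 10 in 3 of 9 mice and Gabrb1 and Gabrb2 in 0. Free RNA in precursors was estimated at 10.29 to 19.28%, and after its subtraction every mouse kept UMIs of the 3 genes, 35 to 111 of Gabra3 (41 to 129 before), 319 to 616 of Gabrb1 (442 to 934 before) and 85 to 249 of Gabrb2 (115 to 321 before). In oligodendrocytes the 7 genes had 16.6 to 28.4% against a median of 17.0% for the neuron genes, and in microglia 13.6 to 39.2% against 27.2%.

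With age, 11 of 43 gene and class combinations that passed the filter fell and 1, Gabra3 in excitatory neurons, rose, where 10.4% of all tests over the 7 classes were called, 5.18% as lower. All 11 were in astrocytes, oligodendrocytes or microglia. The summed level of the 10 neuron genes was also lowest in aged AAV-EGFP mice, although not every gene among them fell. In astrocytes the sum was 2486 to 2565 CPM in young AAV-EGFP, 1012 to 1578 in aged AAV-EGFP and 1839 to 2451 in aged AAV-B3GNT3 mice, with none of the 10 at 0. In oligodendrocytes it was 2874 to 3231, 1347 to 2215 and 2463 to 3299 CPM. Meg3, a neuronal long noncoding RNA, fell by 1.15 in astrocytes with age (adjusted p = 0.00179), while Nrgn, a dendritic calmodulin-binding protein gene, rose by 0.78 (adjusted p = 0.0228).

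In astrocytes 3 of the 7 genes fell with age, where 7.37% of genes in this class fell, and 2 were called in the treated mice, where 5.38% were called. Gabrb2, which sat near the median of the neuron genes there, had 77.0, 79.1 and 72.9 CPM in young AAV-EGFP, 33.6, 32.8 and 24.4 in aged AAV-EGFP and 39.8, 59.8 and 47.1 in aged AAV-B3GNT3 mice. It fell by 1.34 with age (SE 0.181, adjusted p = 0.0006) and rose by 0.71 in the treated mice (SE 0.185, adjusted p = 0.0395), and no 2 groups overlapped. Gabra5 fell by 1.58 (SE 0.343, adjusted p = 0.00918) and Gabra4 by 0.72 (SE 0.223, adjusted p = 0.0484), the latter with overlap between groups. After free RNA was subtracted, 0 Gabrb2 UMIs were left in astrocytes of all young and all aged AAV-EGFP mice, and 0 to 8 in aged AAV-B3GNT3 mice. Of Gabra5, 0 to 8 were left in young and 0 in all 3 aged AAV-EGFP mice, while Gabra4 kept 232 to 396 and 59 to 137. With nuclei marked as doublets kept, the Gabrb2 differences were -0.67 with age (adjusted p = 0.0788) and 0.14 in the treated mice (0.77). The rise in the treated mice was not called without aged AAV-EGFP mouse 2 or 3, aged AAV-B3GNT3 mouse 2 or 3, or young AAV-EGFP mouse 2 or 3, at 0.52 to 0.77 (adjusted p from 0.0522 to 0.204). Without aged AAV-EGFP mouse 3 the age difference of Gabra5 was -1.22 (adjusted p = 0.0642), and that of Gabra4 was not called under 12 of its 19 alternatives.

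Gabrb1, which stood above all 10 neuron genes in astrocytes, had 3612, 4301 and 4616 CPM in young AAV-EGFP mice, 4721, 4358 and 3544 in aged AAV-EGFP mice, and 2476, 2558 and 2622 in aged AAV-B3GNT3 mice. Young and aged AAV-EGFP mice overlapped (log2 difference 0.01, SE 0.152), and all 3 aged AAV-B3GNT3 mice were below all 6 others. In the treated mice it fell by 0.72 against aged AAV-EGFP mice (SE 0.153, adjusted p = 0.0184) and by 0.71 against young AAV-EGFP mice (SE 0.153, adjusted p = 0.0249). The latter was the only call between these groups in the 7 classes, where 1.70% of all tests were called. After free RNA was subtracted the differences were -0.72 (adjusted p = 0.0678) and -0.77 (0.0586), and with both libraries rich in oligodendrocyte RNA left out -0.63 (0.0539) and -0.67 (0.0719). The fall against aged AAV-EGFP mice did not pass without aged AAV-EGFP mouse 2 (-0.70, adjusted p = 0.0632) or aged AAV-B3GNT3 mouse 1 (-0.70, 0.0744) or mouse 2 (-0.72, 0.0905). That against young mice did not pass without any one of the 3 aged AAV-B3GNT3 mice or young AAV-EGFP mouse 2 or 3 (adjusted p from 0.0611 to 0.185). Gabra2, the other gene above all 10, had 393, 469.7 and 379 CPM in young AAV-EGFP, 392, 329 and 235 in aged AAV-EGFP and 206, 293 and 290.1 in aged AAV-B3GNT3 mice. It was not called in any comparison, and its difference between aged AAV-B3GNT3 and young mice, which did not overlap, was -0.65 (SE 0.189, adjusted p = 0.0763).

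**Figure D5:**
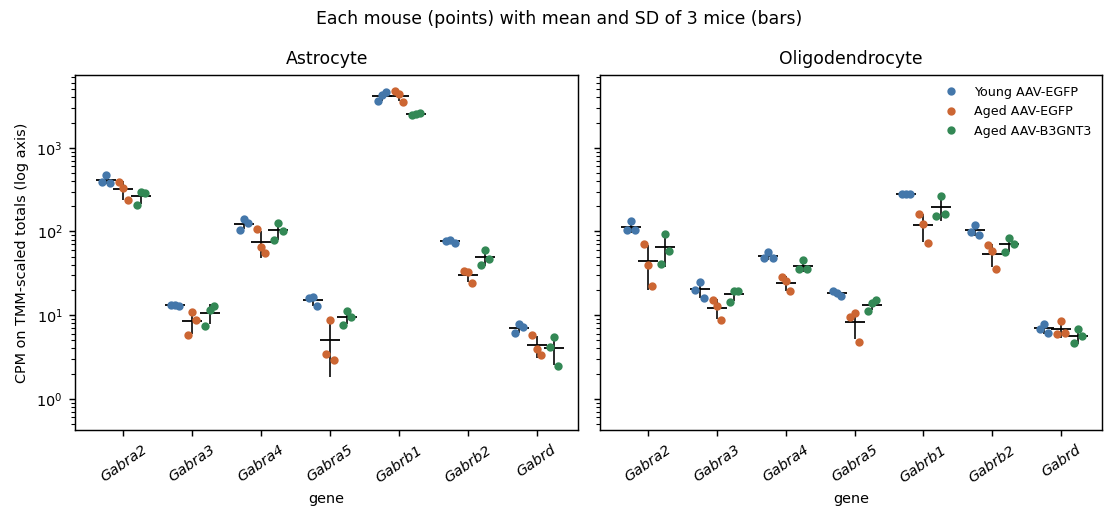
Levels of the 7 genes in astrocytes (left) and oligodendrocytes (right), as CPM on TMM-scaled totals (log axis); each point is 1 mouse, and bars give the mean and SD of 3 mice. In astrocytes Gabrb1 is lowest in the aged AAV-B3GNT3 mice (2476 to 2622), whereas Gabrb2 is lowest in the aged AAV-EGFP mice (24.4 to 33.6).

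In oligodendrocytes 6 of the 7 genes fell with age: Gabra2 by 1.38 (adjusted p = 0.019), Gabrb1 by 1.25 (0.00782), Gabra5 by 1.18 (0.0102), Gabra4 by 1.07 (0.00448), Gabrb2 by 0.93 (0.0134) and Gabra3 by 0.76 (0.0445), where 9.05% of genes in this class fell. Gabrd gave -0.03. Young and aged AAV-EGFP mice did not overlap for any of the 6, and 17.7% of all genes in this class lay lower with age without overlap. Gabrb1, for example, had 284, 283.5 and 281 CPM in young AAV-EGFP, 160.5, 124 and 72.1 in aged AAV-EGFP and 154, 265 and 162.5 in aged AAV-B3GNT3 mice. None of the 6 passed when nuclei with more than 5000 genes were kept, at differences from -0.66 to -0.25. After free RNA was subtracted, 0 UMIs of each of the 6 genes were left in all 3 aged AAV-EGFP mice, against 8 to 32 of Gabra3 and 38 to 48 of Gabra4 in young AAV-EGFP mice, and the fitted differences, which then depend on a count of 0, ran from -9.81 to -7.44 with age for Gabra2, Gabra3, Gabra4 and Gabrb2 and to 7.37 for Gabra4 in the treated mice. With all filters in place, leaving out young AAV-EGFP mouse 2 ended the calls of Gabra2, Gabra3 and Gabrb2 (-1.25, -0.59 and -0.81), leaving out aged AAV-EGFP mouse 2 or 3 ended those of Gabra2 and Gabra3, and leaving out young AAV-EGFP mouse 1 or aged AAV-B3GNT3 mouse 3 ended that of Gabra3 (-0.80 and -0.76). In aged AAV-B3GNT3 mice Gabra4 rose by 0.68 over aged AAV-EGFP mice (SE 0.175, adjusted p = 0.0392), a call that was lost without aged AAV-EGFP mouse 2 or 3, aged AAV-B3GNT3 mouse 1 or 2, or young AAV-EGFP mouse 2 or 3 (0.53 to 0.76, adjusted p from 0.0543 to 0.162), where 1.79% of genes rose. In microglia Gabra4 (by 1.25, adjusted p = 0.0273) and Gabrb1 (by 1.08, adjusted p = 0.0387) fell with age, where 3.43% of genes fell. These rest on 9 to 50 Gabra4 and 54 to 238 Gabrb1 UMIs per mouse. Neither passed without aged AAV-EGFP mouse 2 or 3 or young AAV-EGFP mouse 2 (adjusted p from 0.0598 to 0.169), nor Gabrb1 without young AAV-EGFP mouse 3 (-0.85, 0.161). With free RNA subtracted, all 3 aged AAV-EGFP mice had 0 microglial UMIs of both genes, against 3 to 14 of Gabra4 and 0 to 56 of Gabrb1 in young AAV-EGFP mice. After the estimated free RNA was subtracted from every class, edgeR called 4 combinations with age in place of 12 and 0 in the treated mice in place of 4, of which there had been 2 in each direction, where 2.90% of all tests over the classes were called.

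In oligodendrocyte precursors none of the 6 genes tested was called by edgeR with age or in the treated mice, where 6.08% and 1.78% of all genes were called. Gabra3 had 70.7, 87.6 and 85.7 CPM in young AAV-EGFP, 94.3, 76.4 and 65.4 in aged AAV-EGFP and 48.8, 67.8 and 46.0 in aged AAV-B3GNT3 mice, with a difference of -0.07 with age (adjusted p = 0.873) and of -0.53 in the treated mice (SE 0.192, adjusted p = 0.181). In brain endothelial cells, which the virus targets, 46 to 113 nuclei per mouse were found and 4 of the 7 genes passed the filter. edgeR called none of the 4 in any comparison, where it called 2.16% of all genes of this class with age, 0.114% as higher and 0.886% as lower in the treated mice, and 0.00% between aged AAV-B3GNT3 and young AAV-EGFP mice. The lowest p values of the 4 were those of Gabrb1, at -1.26 with age (unadjusted p = 0.00290, adjusted p = 0.0760, and from 0.00844 to 0.477 over the alternatives), and Gabra2, at -1.39 (unadjusted p = 0.0144, adjusted p = 0.168, and from 0.0432 to 0.478), and no other comparison of the 4 had an unadjusted p under 0.05.

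Of 32 other genes of GABA signalling (the other GABA-A subunits, receptor anchoring, GABA synthesis and transport, and the GABA-B receptor), 25 were measured in excitatory and 25 in inhibitory neurons. With age 0 rose and 5 fell in excitatory neurons, where 6.75% of genes fell, and none was called in inhibitory neurons. Both GABA-B receptor genes were among the 5: Gabbr2 was at 643, 589 and 642 CPM in the young AAV-EGFP mice and 474, 505 and 422.5 in those aged with the same virus, a fall by 0.42 (adjusted p = 0.0415), and Gabbr1 fell by 0.32 (adjusted p = 0.0496). Shisa7, a GABA-A receptor auxiliary protein gene, fell by 0.46 (adjusted p = 0.0141) and Iqsec3, which encodes a gephyrin-binding exchange factor of inhibitory synapses, by 0.45 (adjusted p = 0.0258). Gabrr2 also fell, by 1.23 (adjusted p = 0.0418), from a mean of 0.883 CPM. In the treated mice 0 of 25 were called in either class, where edgeR called 2.44 and 0.600% of all genes.

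Over the neuron types 24 of the 32 genes were measured in at least 1 type, in 360 combinations of gene and type. With age 5 combinations rose and 12 fell, where 4.10% of all tests over neuron types were called, and in the treated mice 0 rose and 3 fell, where 0.869% were called. Gabrg3, the gamma 3 subunit gene, fell in treated mice in Lamp5 interneuron-like nuclei by 0.79 (adjusted p = 0.0138), from a mean of 3601 CPM in aged AAV-EGFP to 2090.0 in aged AAV-B3GNT3 mice, beside 2751 in young AAV-EGFP mice. Gad2, a GABA-synthesising enzyme gene, rose with age in Parvalbumin interneuron-like nuclei by 0.56 (adjusted p = 0.0392). In glia 7 of the 25 measured genes were called with age in astrocytes and 7 of 26 in oligodendrocytes, where 12.4% and 19.4% of all genes were called. In each of these classes 2 rose and 5 fell. In the treated mice 2 and 1 were called, where 5.38% and 6.55% of all genes were.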

How the data were processed

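Nuclei of 9 mice (3 per group) were profiled with 10x 3′ chemistry, 1 library per mouse. The deposited values are raw UMI counts, made by the authors with Cell Ranger (version 4.0.0 in the submitters' processing notes, 7.2.0 in the matrix headers). Per the study's methods the authors also corrected for free RNA and removed doublets, but the deposited matrices precede both steps.

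Nuclei with 200 to 5000 genes and at most 10% mitochondrial counts were kept, and 4506 nuclei with the highest share of simulated doublets among their neighbours were removed. The 2000 variable genes, without GABA receptor genes, gave the Leiden clusters (scanpy 1.11.5, leidenalg 0.10.2). Clusters were named from fixed marker lists, with naming thresholds set after the clusters were seen; 9.653% of nuclei stayed unnamed. Cluster names were rebuilt here and may differ from those of the study.

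UMI counts were summed per mouse and class or neuron type, since nuclei are not replicates. Neuron types needed at least 20 nuclei in every mouse to be tested and 10 for levels. The main test was edgeR's quasi-likelihood test (4.0.16, TMM, filterByExpr with a minimum count of 10, all 9 mice in 1 fit), with Benjamini-Hochberg adjustment over all genes of a type and comparison at 0.05. DESeq2 (1.42.0), as in the study, was an alternative. Changes were compared between classes with limma (3.58.1) on within-mouse differences. P-values measure the spread between mice. The scripts were tested on simulated data. Free RNA was estimated per type and mouse from oligodendrocyte markers in neurons and excitatory neuron markers in other classes. Marker RNA from any source was thus counted as free RNA. The 7 genes and all lists were chosen with earlier results of these data known. Not all 7 are named in every passage. Other GABA genes are named where called in excitatory or inhibitory neurons, but only in part for neuron types and glia. Alternatives covered normalisation, filters, doublets, free RNA, clustering, samples in the fit, a replicate block and each mouse left out; leaving out both libraries rich in oligodendrocyte RNA was chosen after seeing the data. Results of some genes outside the 7 are not reported here.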

Additional observations from a re-analysis of the deposited data

Results flagged for a closer look

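The change of 22 gene and class combinations differed from that in excitatory neurons by a test of the difference itself (limma on within-mouse log2 differences, adjusted p under 0.05), 15 with age and 7 in the treated mice. Over all genes 4.95% of such tests were called with age and 1.76% in the treated mice.

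With age the change in excitatory neurons exceeded that in astrocytes by 1.58 for Gabra5, 1.53 for Gabrb2, 1.2 for Gabra3 and 0.84 for Gabra4 on the log2 scale. It exceeded that in oligodendrocytes by 1.42 for Gabrb1, 1.31 for Gabra2, 1.3 for Gabra3, 1.19 for Gabra5, 1.17 for Gabrb2 and 1.16 for Gabra4. Against microglia the excess was 1.47 for Gabra3, 1.3 for Gabra4, 1.27 for Gabrb2 and 1.26 for Gabrb1, and against oligodendrocyte precursors it was 0.74 for Gabrb2.

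In the treated mice the differences had the opposite sign: -1.14 for Gabrb2 against astrocytes and, against oligodendrocytes, -1.15 for Gabra3, -1.03 for Gabrb1, -0.9 for Gabra2, -0.9 for Gabrb2, -0.8 for Gabra4 and -0.79 for Gabra5. Both comparisons share the aged AAV-EGFP mice. The summed level of 10 neuron genes in glia was lowest in those mice (a mean of 1372 CPM in astrocytes, against 2512 in young AAV-EGFP and 2074 in aged AAV-B3GNT3 mice). After free RNA was subtracted 3 of these tests were called with age and 0 in the treated mice. No difference was called against inhibitory neurons (7 genes tested) or brain endothelial cells (4 tested).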

How the results depend on the processing

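Of 26 single calls, 487 alternative values were computed: 339 stayed past the threshold, 148 kept their direction but not the threshold, and 0 changed sign. Some calls had a value under only 18 of the 19 alternatives, and the missing one is not in this tally. With age these were Gabra5 and Gabrb2 in astrocytes, Gabra5 and Gabrb1 in oligodendrocytes, and Gabra4 and Gabrb1 in microglia. In the treated mice it was Gabrb2 in astrocytes. After free RNA was subtracted, all 3 aged AAV-EGFP mice had 0 UMIs of each of these. The counts of calls moved more. With age, the 12 calls in classes became 7 with doublets kept, 4 with nuclei over 5000 genes kept and 4 after free RNA was subtracted (6 to 20 with 1 mouse left out), and the 4 in neuron types became 9 without the count filter and 7 without both libraries rich in oligodendrocyte RNA (0 to 8 with 1 mouse left out; 0 without aged AAV-EGFP mouse 2, young mouse 1 or young mouse 3). In the treated mice, the 4 calls in classes became 8 without the filter, 2 with doublets kept, 0 after free RNA subtraction and 2 with only the groups compared (0 to 7; 0 without aged AAV-EGFP mouse 2 or aged AAV-B3GNT3 mouse 2), and the 4 in neuron types became 2 with RLE size factors, 17 without the filter, 1 with doublets kept, 0 after free RNA subtraction and 2 without both libraries (0 to 13; 0 without aged AAV-EGFP mouse 2 or aged AAV-B3GNT3 mouse 1, and 13 without aged AAV-EGFP mouse 3). Between aged AAV-B3GNT3 and young mice, the 1 call in classes became 2 with DESeq2, 8 without the filter, 0 after free RNA subtraction, 4 with only the groups compared, 2 with the replicate block and 0 without both libraries (0 to 4), and the 1 in neuron types became 3 with DESeq2, 0 with RLE size factors, 8 without the filter, 0 with nuclei over 5000 genes, 0 after free RNA subtraction, 0 with GABA genes among the variable genes, 7 with only the groups compared and 2 without both libraries (0 to 6). The 15 differences between classes with age became 3 after free RNA subtraction (11 to 18 with 1 mouse left out), and the 7 in the treated mice became 0 (2 to 9). As UMIs per nucleus, 52 of 189 neighbouring pairs differed in the same order in place of 0, and a further 30 differed in the opposite order. With the replicate number as a block the other counts were 11 and 5 with age and 4 and 3 in the treated mice. Same-numbered mice had deviations with r from -0.261 to 0.249 in excitatory neurons, and other classes are not given here. These values cannot tell whether same-numbered mice shared a batch, which the labels do not give. The cause of the changes in the counts of calls was not tested. Low counts limit Gabrd and the smaller classes most.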

Other observations

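Gabrg1 and Gabarap were among the other GABA genes called in glia and are described because of their values. Both rose with age, whereas most of the other GABA genes called there fell. In astrocytes 2 rose and 5 fell, where 12.4% of all genes were called and 7.37% fell. In oligodendrocytes 2 rose and 5 fell, where 19.4% of all genes were called and 9.05% fell. In astrocytes Gabrg1, the gamma 1 subunit gene, rose with age by 0.61 (adjusted p = 0.0306, edgeR), from a mean of 94.2 CPM in young mice to 145 in those given AAV-EGFP at the higher age, beside 96.4 with AAV-B3GNT3. Gabarap, which encodes a protein that binds GABA-A receptors and takes part in autophagy, rose in astrocytes by 0.79 (adjusted p = 0.0337) with age and fell by 1.04 (adjusted p = 0.0206) in the treated mice. In oligodendrocytes it rose by 1.07 (adjusted p = 0.00614) and fell by 1.16 (adjusted p = 0.0112), where its mean was 18.7 CPM in young mice, 39.1 with age and 17.3 in the treated mice.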
